A study of Mus musculus with 12 samples.

Results

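The genes described here encode 9 receptors through which blood-forming cells sense cytokines: Kit, Flt3, Csf1r, Epor, Csf3r, Il7r, Csf2ra, Il3ra and Csf2rb. They were chosen by gene name, as the receptors best known from early haematopoiesis, and are 9 of the 24054 genes in the expression tables. RNA was sequenced from stem cells (LT-HSC; sorted as LSK, CD150+, CD48-) and multipotent progenitors (MPP; sorted as LSK, CD150-, CD48+), both from the fetal liver of E13.5 mice, with 3 libraries for each cell type and genotype and 12 in all. LSK denotes cells that lack lineage markers and carry Sca-1 and Kit on their surface. Mutants were Setdb1 p/p;vav-cre in both cell types, and Setdb1 encodes a histone H3 lysine 9 methyltransferase. Controls were Setdb1 +/p, so they carried 1 copy of the same p allele, which the labels do not define further. Of the controls, 3 had no Cre (Setdb1 +/p;+/+): number 1 of LT-HSC and numbers 1 and 2 of MPP. The other controls, numbers 2 and 3 of LT-HSC and number 3 of MPP, carried vav-cre (Setdb1 +/p;vav-cre), in which the Vav promoter drives Cre in blood cells. Between 500 and 1000 LT-HSC or 20000 MPP were sorted per sample, and 10 ng of RNA entered each library.

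Cytokine receptors sit in the cell membrane and pass the signal of a ligand outside the cell to kinases inside it. Kit, Flt3 and Csf1r are receptor tyrosine kinases of one structural class, with the kinase built into the receptor. The others are cytokine receptors without a kinase, which bind Janus kinases and act largely through STAT proteins. In fetal liver, Kit signalling maintains stem cells and early progenitors, the erythropoietin receptor is required for red cell production, and Flt3 and the interleukin 7 receptor mark progenitors on the lymphoid side.

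Total expected counts per library lay between 10119416 and 14113198. Levels are given as counts per 1000000 counts of the library (CPM), after scaling between libraries, in the order of the replicate numbers. Setdb1 itself had 66.4, 66.4 and 80.8 CPM in LT-HSC mutants, against 83.9, 73.4 and 108.1 CPM in LT-HSC controls. In MPP it had 86.9, 116.9 and 99.0 CPM in mutants, against 140.2, 95.2 and 87.8 CPM in controls. Setdb1 RNA therefore overlapped between the genotypes in both cell types and was called in neither (log2 fold change -0.27, adjusted p = 0.651 in LT-HSC; -0.12, adjusted p = 0.598 in MPP; edgeR quasi-likelihood test). A count over the whole gene does not check a deletion of part of it. Slamf1 and Cd48, which set LT-HSC apart from MPP in the sort, followed the labels. Slamf1, which encodes CD150, averaged 38.6 and 36.7 CPM in LT-HSC mutants and controls but 1.24 and 1.79 CPM in MPP mutants and controls. Cd48 averaged 18.7 and 14.5 CPM in LT-HSC mutants and controls but 170.9 and 227.9 CPM in MPP mutants and controls. Ly6a, which encodes Sca-1 of the LSK gate, averaged 55.0 ± 35.3 and 38.2 ± 5.21 CPM in LT-HSC mutants and controls and 14.96 ± 1.72 and 30.9 ± 4.47 CPM in MPP mutants and controls (SD, n = 3 each). In MPP, Ly6a (log2 fold change -1.07, adjusted p = 0.000339) and Cd48 (-0.44, adjusted p = 0.0148) were lower in mutants, and their part in the receptor results was not tested. The labels do not say that all replicates came from separate fetuses. Controls with and without vav-cre differ in genotype, so these came from different fetuses, and the spread of controls includes that difference. The p-values measure the spread between these samples, which may be technical among replicates of the same genotype. LT-HSC mutant 2 stood apart from LT-HSC mutants 1 and 3 in macrophage genes, as described with Csf1r.

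The sequence before a transcription start is shown for 4 of the 6 receptors that changed in mutant MPP, the ones with an entry in the RefSeq promoter table (build GRCm38.p6), to set the receptor that rose beside 3 that fell. The Epor window is chr9:21963577-21963826 on the minus strand, the Csf3r window is chr4:126024409-126024658 on the plus strand, the Flt3 window is chr5:147400490-147400739 on the minus strand, and the Il7r window is chr15:9529877-9530126 on the minus strand. Each is 250 bases, 5′ to 3′, ending at the base before the start that the table lists. In the RefSeq gene spans of the same build, the Csf3r window lies wholly inside its gene (chr4:126023441-126044975) and the Il7r window overlaps the 5′ end of its gene (chr15:9506159-9529941), so these listed starts are internal to the gene spans. Capitals mark exact matches, on either strand, to AGATAA (a core motif of GATA factors), CCACCC (a core motif of KLF factors) or GAGGAA (a core motif of PU.1).
Epor: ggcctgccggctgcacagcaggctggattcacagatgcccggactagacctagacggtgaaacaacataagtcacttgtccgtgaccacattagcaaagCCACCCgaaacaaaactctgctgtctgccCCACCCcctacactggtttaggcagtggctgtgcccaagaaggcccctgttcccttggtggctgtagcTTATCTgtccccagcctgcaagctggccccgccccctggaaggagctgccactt
Csf3r: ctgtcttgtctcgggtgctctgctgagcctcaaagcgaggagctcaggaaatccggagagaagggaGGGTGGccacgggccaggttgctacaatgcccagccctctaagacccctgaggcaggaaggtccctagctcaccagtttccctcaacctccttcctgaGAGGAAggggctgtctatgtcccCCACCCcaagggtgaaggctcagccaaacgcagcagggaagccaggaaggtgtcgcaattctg
Flt3: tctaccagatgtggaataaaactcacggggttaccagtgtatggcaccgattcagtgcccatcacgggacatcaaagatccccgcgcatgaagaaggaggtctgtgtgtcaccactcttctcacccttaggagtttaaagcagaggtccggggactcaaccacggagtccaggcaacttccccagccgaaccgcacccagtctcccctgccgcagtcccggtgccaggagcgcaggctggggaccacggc
Il7r: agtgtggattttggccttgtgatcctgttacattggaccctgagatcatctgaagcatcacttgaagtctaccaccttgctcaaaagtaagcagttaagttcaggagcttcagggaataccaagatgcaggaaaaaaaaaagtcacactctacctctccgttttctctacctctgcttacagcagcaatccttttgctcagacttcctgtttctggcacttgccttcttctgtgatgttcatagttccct
The Epor window held 1 AGATAA, on the strand opposite to the one printed and 54 bases before the start, and 2 CCACCC. The Csf3r window held 2 CCACCC and 1 GAGGAA, and the Flt3 and Il7r windows held none of the 3 motifs. No match overlapped another in these windows. Over the 32851 RefSeq promoters of the same length, 9.99% held AGATAA, 28.1% held CCACCC and 23.3% held GAGGAA, so each motif is common and a match is a description of these letters only.

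In MPP, 1 receptor rose with the mutation and 5 fell. Epor rose, and Flt3, Csf1r, Csf3r, Il7r and Csf2rb fell, while Kit, Csf2ra and Il3ra were not called. Thus 6 of 9 receptors were called in mutant against control MPP at an adjusted p under 0.05, where 35.0% of the 12392 genes tested were called (16.5% higher and 18.5% lower). The median log2 fold change of the 9 receptors was -0.94, against -0.01 for all genes tested. In LT-HSC only Flt3 was called among the 8 receptors tested, where 0.420% of 12847 genes were called. Of all genes tested there, 0.257% were called higher and 0.163% lower. The median of the receptors was -0.06, against 0.03 for all genes tested, and 3 receptors had an unadjusted p under 0.05 (9.50% of genes did). In bulk samples such as these, fewer cells of a type and less RNA per cell cannot be told apart.

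**Figure D1:**
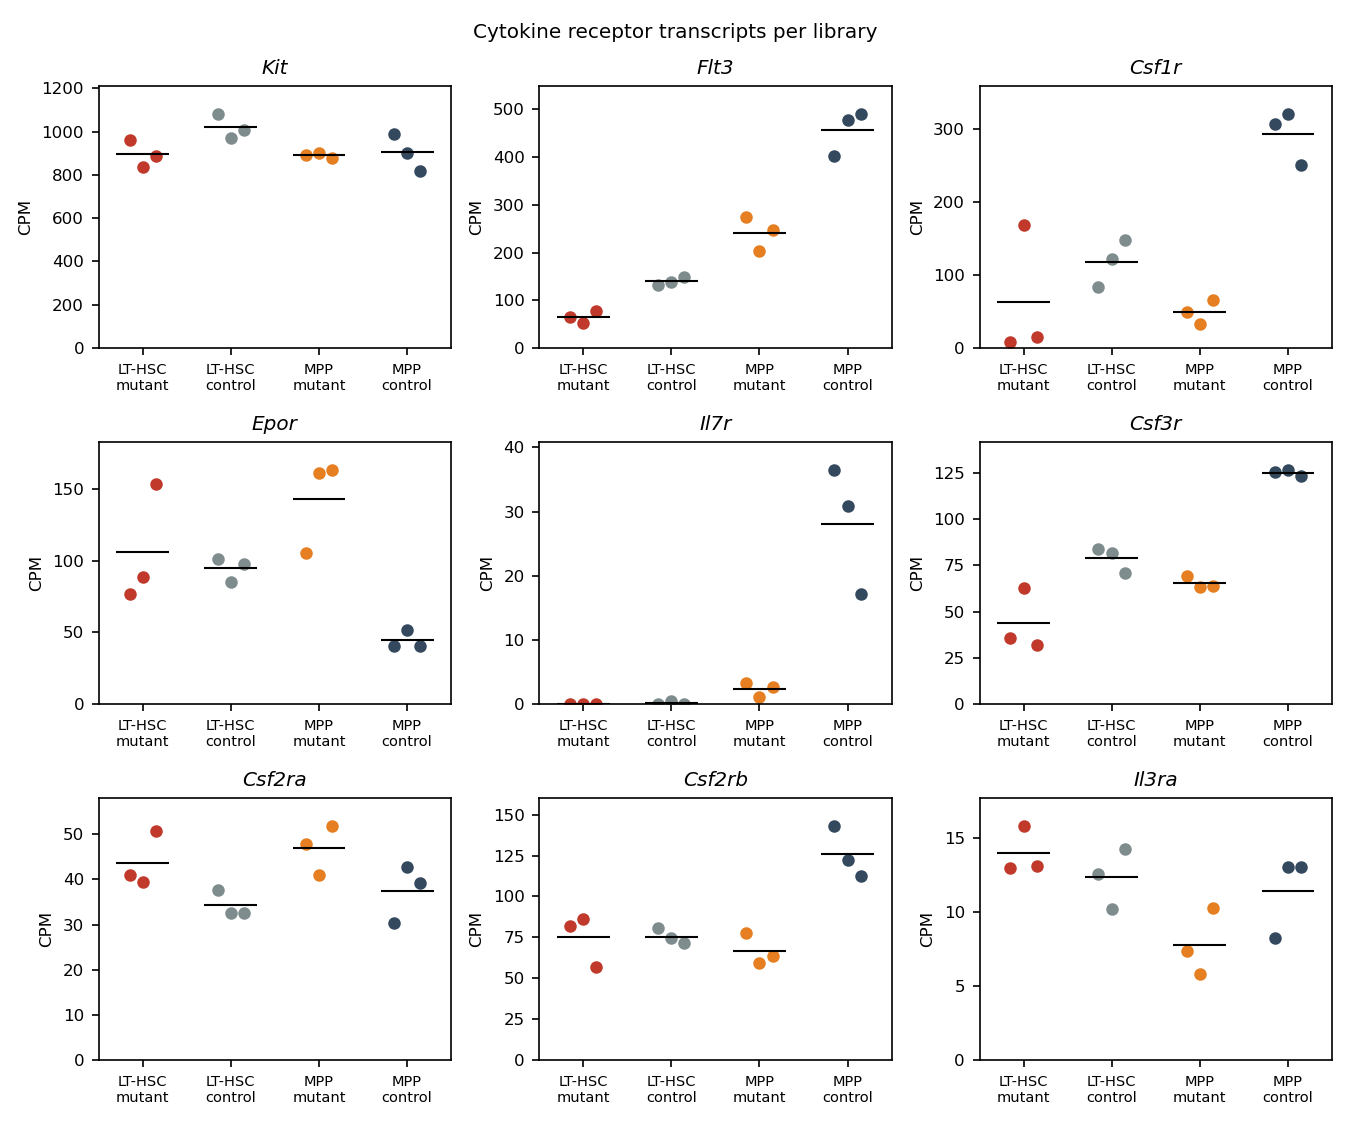
Level of each receptor gene in each library (CPM, linear axis from 0), with LT-HSC mutants, LT-HSC controls, MPP mutants and MPP controls from left to right; points are libraries in replicate order and lines are group means (n = 3). Kit lies between 818 and 1081 CPM in all 12 libraries, Flt3 separates all 4 groups, and Csf1r in LT-HSC mutants is split between 169.1 CPM in mutant 2 and 7.57 and 14.7 CPM in the other mutants.

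Kit, the receptor for stem cell factor, was the most abundant of the receptors per transcript length and varied least between libraries. It had 963, 835 and 886 CPM in LT-HSC mutants, against 1081, 968 and 1008 CPM in LT-HSC controls. The 3 LT-HSC mutants lay below the 3 controls, but by little, with a log2 fold change of -0.15 (SE 0.09, 95% interval -0.36 to 0.05, adjusted p = 0.646). In MPP it had 890, 901 and 879 CPM in mutants, against 991, 902 and 818 CPM in controls, and the groups overlapped (log2 fold change -0.05, 95% interval -0.24 to 0.14, adjusted p = 0.685). Kit protein was one of the sort criteria in every group, so cells with little of it were not collected.

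Flt3, the receptor tyrosine kinase for FLT3 ligand, was the only receptor called lower in both cell types, though Csf3r mutants lay lower in both. It had 65.6, 51.9 and 78.1 CPM in LT-HSC mutants, against 132, 138.4 and 149.6 CPM in LT-HSC controls. It had 274.2, 203.9 and 246.2 CPM in MPP mutants, against 402.1, 477.9 and 490.1 CPM in MPP controls. No mutant library reached the lowest control of its cell type. The log2 fold change was -1.07 in LT-HSC (SE 0.15, 95% interval -1.41 to -0.72, adjusted p = 0.0440) and -0.94 in MPP (SE 0.12, adjusted p = 0.000158). The difference between these effects was -0.18 (95% interval -0.63 to 0.27, adjusted p = 0.817). The LT-HSC call rested on all of its controls and on mutant 1. Without LT-HSC control 1, 2 or 3, or without mutant 1, the log2 fold change was -1.11, -1.07, -1.02 or -1.06, with adjusted p = 0.159, 0.190, 0.206 or 0.146.

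Csf1r, the receptor for macrophage colony-stimulating factor and the third of the tyrosine kinases, had the steepest fall in MPP after Il7r. It had 50.0, 32.3 and 65.6 CPM in MPP mutants, against 306.9, 321.0 and 251.6 CPM in MPP controls. The highest mutant was far below the lowest control, and the log2 fold change was -2.60 (SE 0.21, adjusted p = 8.52e-06). In LT-HSC it had 7.57, 169.1 and 14.7 CPM in mutants, against 83.8, 121.9 and 148.1 CPM in controls. LT-HSC mutants 1 and 3 lay below all controls and mutant 2 above all of them, so the log2 fold change of -0.82 had an interval of -3.12 to 1.47 (adjusted p = 0.842). Without LT-HSC mutant 2 it was -3.39 (adjusted p = 0.0175), and with same-numbered LT-HSC libraries taken as pairs it was -2.09 (SE 0.81, adjusted p = 0.378).

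Csf1r is also a marker of macrophages, and the macrophage genes of the libraries moved with it. The summed level of 18 macrophage genes was 241.8, 152.3 and 228.5 CPM in MPP mutants, against 931.4, 744.2 and 628.8 CPM in MPP controls. In MPP, 15 of the 16 macrophage genes tested were lower in mutants, with a median log2 fold change of -2.75. Cd5l, a secreted macrophage protein, had a log2 fold change of -4.28, Emr1, which encodes the F4/80 antigen, -2.57, and the complement gene C1qa -1.83. In LT-HSC the sum was 73.3, 1160 and 211.0 CPM in mutants, against 887.4, 1142 and 1301 CPM in controls, and 0 of 16 genes were called by edgeR (4 had an unadjusted p under 0.05, and DESeq2 called 2). LT-HSC mutant 2, the library with high Csf1r, thus had a macrophage sum at the level of the controls. Vsig4, a receptor of tissue macrophages, was at 0 in both mutant groups. Csf1r per 100 CPM of macrophage genes was 20.7, 21.2 and 28.7 CPM in MPP mutants, against 33.0, 43.1 and 40.0 CPM in MPP controls. In LT-HSC it was 10.3, 14.6 and 6.99 CPM in mutants, against 9.44, 10.7 and 11.4 CPM in controls. The ratio was therefore lower in every mutant than in every control of the MPP and overlapped in LT-HSC. It depends on which genes enter the sum. Slc40a1, an abundant gene of the list, averaged 84.4 CPM in MPP mutants and 160.2 CPM in MPP controls. The MPP log2 fold change of Csf1r, -2.60, was near the list median of -2.75, so the ratio does not tell whether Csf1r fell further than these genes. Other cell types of the liver moved in the same libraries. The summed level of 16 hepatoblast genes was 132, 140 and 108.7 CPM in MPP mutants, against 400.6, 290.1 and 595.4 CPM in MPP controls, and 6 of 14 tested were lower. In LT-HSC that sum was 307.9, 496.3 and 104.2 CPM in mutants, against 564.9, 1796 and 1843 CPM in controls, with a median log2 fold change of -2.44, and edgeR called 0 of 16 (8 had an unadjusted p under 0.05, and DESeq2 called 2). The sum of 11 endothelial genes was 313.6 to 407.4 CPM in MPP mutants, against 498.2 to 526.8 CPM in MPP controls, and 476.9 to 667.2 CPM in LT-HSC mutants, against 681.9 to 747.6 CPM in LT-HSC controls. The part of macrophage, hepatoblast or endothelial RNA in the Csf1r result was not tested.

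**Figure D2:**
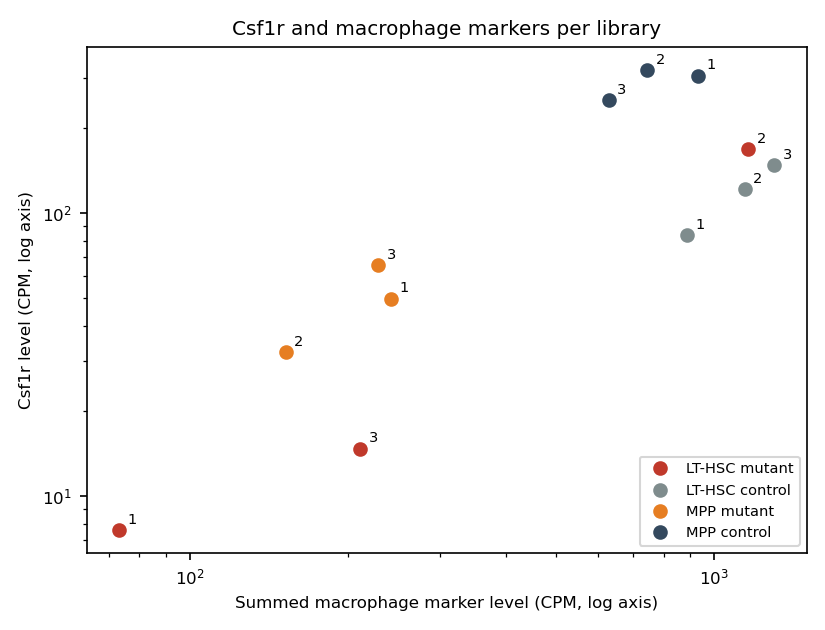
Csf1r level against the summed level of 18 macrophage genes in each library (both CPM, log axes), numbered by replicate and coloured by group. The 3 MPP mutants lie at 152.3 to 241.8 CPM of macrophage genes and the 3 MPP controls at 628.8 to 931.4 CPM, and LT-HSC mutant 2 lies with the LT-HSC controls.

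Epor, the erythropoietin receptor, was the only receptor of the 9 called higher in mutant MPP. It had 105.5, 161.2 and 163.5 CPM in MPP mutants, against 40.9, 51.5 and 40.9 CPM in MPP controls. Every mutant library lay well above the highest control, and the log2 fold change was 1.66 (SE 0.16, 95% interval 1.31 to 2.02, adjusted p = 2.89e-05). In LT-HSC it had 77.2, 88.8 and 153.6 CPM in mutants, against 101.4, 85.2 and 97.8 CPM in controls. The LT-HSC groups overlapped, and only mutant 3 lay above the controls (log2 fold change 0.21, adjusted p = 0.840). Without LT-HSC mutant 3 the direction turned, to -0.15.

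Red cell genes were higher in the same MPP libraries. The summed level of 21 red cell genes was 6639, 10160 and 9155 CPM in MPP mutants, against 2852, 2102 and 3849 CPM in MPP controls, and 18 of the 20 tested were higher (median log2 fold change 1.52). In LT-HSC the sum was 5057, 4121 and 7378 CPM in mutants, against 4109, 7086 and 4857 CPM in controls, with mutant 3 the highest of its group for both Epor and this sum. Car1, a carbonic anhydrase of red cells, had a log2 fold change of 7.24 in MPP, far above the list median. It rose in LT-HSC as well, at 796 ± 503 CPM in mutants and 7.89 ± 2.05 CPM in controls (log2 fold change 6.70, adjusted p = 0.00201 by edgeR). Of the 20 red cell genes tested in LT-HSC, Car1 was the 1 called. No red cell gene of the list was at 0 in a whole group. Hbb-bt and Hbb-b2 of the list had the same mean and SD in every group, so they are not separate measures in its sums and counts. The part of red cell RNA in the Epor result was not tested.

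Csf3r, the receptor for granulocyte colony-stimulating factor, acts as a pair of identical chains, as Epor does. It had 69.2, 63.3 and 63.6 CPM in MPP mutants, against 125.7, 126.6 and 123.3 CPM in MPP controls. These groups were tight, and the log2 fold change was -0.96 (SE 0.09, adjusted p = 1.69e-05). In LT-HSC it had 36.0, 62.9 and 32.1 CPM in mutants, against 83.7, 81.9 and 71.2 CPM in controls. Again every mutant lay below every control, with mutant 2 the nearest to them, but the call was not reached (log2 fold change -0.81, SE 0.26, adjusted p = 0.393). Without LT-HSC mutant 2 it was -1.21 (adjusted p = 0.0179), and fitted together with the MPP libraries it was -0.86 (adjusted p = 0.0494). The granulocyte and monocyte genes did not move as one: of 18 tested in MPP, 7 were higher and 5 lower in mutants.

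Il7r, the interleukin 7 receptor alpha chain, needed for lymphocyte development, had the greatest fold change of the 9. It had 3.31, 1.09 and 2.63 CPM in MPP mutants, against 36.5, 30.8 and 17.1 CPM in MPP controls, from 36, 12 and 31 counts in mutants and 473, 371 and 207 counts in controls. The log2 fold change was -3.61 (SE 0.36, adjusted p = 3.11e-05). In LT-HSC it was at 0 counts in all 3 mutants, against 1, 6 and 1 counts in controls, and was too low to be tested. Against a floor of 3 counts over the LT-HSC mutants, the pooled LT-HSC controls (8 counts) stood 2.29-fold higher. This takes no account of counting error in the controls and rests on the 6 counts of control 2, so it gives no order between these groups. The summed level of 18 lymphoid genes was 186.1, 151.3 and 161.3 CPM in MPP mutants, against 376.2, 312.2 and 328.2 CPM in MPP controls, and 12 of 14 tested were lower (median log2 fold change -1.43). Cd3e, a T cell receptor component, was the only lymphoid gene of the list at 0 in both MPP groups. The part of lymphoid cells in the Il7r and Flt3 results was not tested.

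Csf2rb encodes the beta chain shared by the receptors for GM-CSF, interleukin 3 and interleukin 5, and Csf2ra and Il3ra encode the alpha chains for GM-CSF and interleukin 3. The beta chain fell in MPP and neither alpha chain was called. Csf2rb had 77.8, 59.1 and 63.8 CPM in MPP mutants, against 143.0, 122.2 and 112.5 CPM in MPP controls (log2 fold change -0.94, SE 0.13, adjusted p = 0.000240). In LT-HSC it had 81.9, 86.1 and 56.9 CPM in mutants, against 80.6, 74.6 and 71.2 CPM in controls, with overlap on both sides (log2 fold change 0.03, adjusted p = 0.975). Mice have a near copy beside it on chromosome 15, Csf2rb2, which encodes a beta chain specific to interleukin 3, and reads shared by the pair may be split between them. Csf2rb2 had 12.8, 9.61 and 12.03 CPM in MPP mutants, against 28.0, 27.2 and 23.6 CPM in MPP controls (log2 fold change -1.22, adjusted p = 0.000150). With both genes summed, the MPP log2 fold change was -0.98 (adjusted p = 0.000149).

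Csf2ra had 40.9, 39.5 and 50.7 CPM in LT-HSC mutants, against 37.7, 32.7 and 32.7 CPM in LT-HSC controls. It was the one receptor whose LT-HSC mutants all lay above the controls (log2 fold change 0.38, adjusted p = 0.483). In MPP it had 47.8, 41.0 and 51.8 CPM in mutants, against 30.5, 42.7 and 39.2 CPM in controls, and control 2 lay within the mutants (log2 fold change 0.30, adjusted p = 0.123). Il3ra had 13, 15.8 and 13.1 CPM in LT-HSC mutants, against 12.6, 10.2 and 14.2 CPM in LT-HSC controls (log2 fold change 0.22, adjusted p = 0.806). In MPP it had 7.36, 5.81 and 10.3 CPM in mutants, against 8.25, 13.04 and 13.05 CPM in controls. The MPP groups overlapped and the log2 fold change of -0.57 was not called (SE 0.24, adjusted p = 0.0869). It passed without MPP control 1 (-0.76, adjusted p = 0.0307) or without MPP mutant 3 (-0.82, adjusted p = 0.0389).

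Mutant and control libraries did not overlap for 6 of 9 receptors in MPP, where 51.0% of tested genes did not, and for 4 of the 8 tested in LT-HSC, where 16.5% did not. In LT-HSC these were Kit, Flt3 and Csf3r, lower in mutants, and Csf2ra, higher in mutants. With controls restricted to those carrying vav-cre, which leaves 1 MPP control whose spread is assumed to be that of the other groups, the 6 MPP receptors kept their directions, but none was called. Their log2 fold changes were then 1.75 for Epor, -1.08 for Flt3, -2.41 for Csf1r, -0.98 for Csf3r, -2.92 for Il7r and -0.81 for Csf2rb, with adjusted p between 0.0754 and 0.333. Flt3 in LT-HSC had -1.10 (adjusted p = 0.0508).

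**Figure D3:**
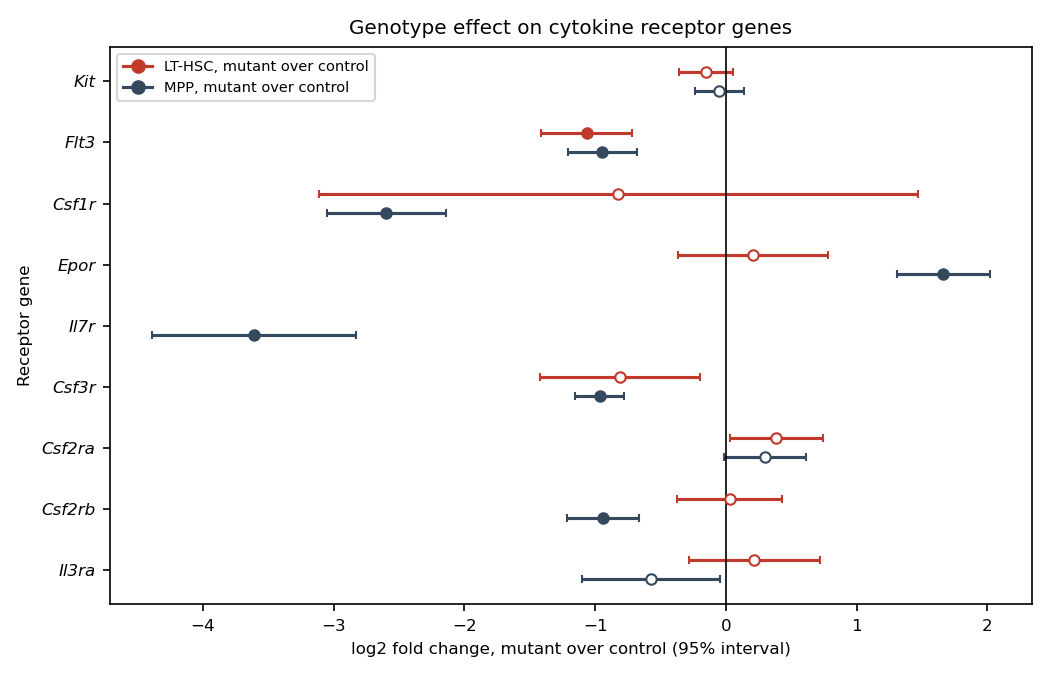
Log2 fold change of each receptor gene, mutant over control, in LT-HSC (red, upper of each pair) and MPP (blue, lower), with 95% intervals; filled circles are called at an adjusted p under 0.05 and open circles are not, and Il7r was too low to be tested in LT-HSC. In MPP, Epor stands at 1.66 and the 5 receptors that fell stand between -0.94 and -3.61.

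Whether the mutation acted differently in LT-HSC and MPP was tested as the difference between the genotype effects. None of the 9 receptors passed (edgeR; 2 had an unadjusted p under 0.05, as 12.4% of genes did, and DESeq2 called the same 2), where 0.377% of 13249 genes were called. Epor came nearest, with a genotype effect smaller in LT-HSC than in MPP by 1.52 on the log2 scale (difference -1.52, SE 0.34, adjusted p = 0.0794, and 0.00144 by DESeq2). For Csf2rb the difference was 0.90 (SE 0.22, adjusted p = 0.111, and 0.0109 by DESeq2). Without LT-HSC mutant 3 both passed, with -1.88 for Epor (adjusted p = 0.00145) and 1.07 for Csf2rb (adjusted p = 0.00521). For Csf1r the difference of 1.67 had an interval of -0.77 to 4.12, and without LT-HSC mutant 2 it turned to -0.82 (adjusted p = 0.459).

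LT-HSC and MPP of the control genotype differed in 6 of 9 receptors, where 38.5% of 12834 genes were called (20.5% higher and 18.0% lower). Epor was higher in control LT-HSC than in control MPP (log2 fold change 1.10, adjusted p = 0.000109). Flt3 (-1.70, adjusted p = 2.52e-06), Csf1r (-1.31, adjusted p = 0.000401), Csf2rb (-0.73, adjusted p = 0.000707) and Csf3r (-0.66, adjusted p = 0.000499) were lower in control LT-HSC. Il7r was lower too, at 0.19 CPM over the pooled LT-HSC controls against 28.3 CPM over the pooled MPP controls (adjusted p = 7.49e-06). Kit (0.18, adjusted p = 0.139), Csf2ra (-0.12, adjusted p = 0.563) and Il3ra (0.12, adjusted p = 0.701) were not called. Kit was called without MPP control 1 (0.25, adjusted p = 0.0322), and Csf1r lost its call when all 12 libraries were fitted together (-1.31, adjusted p = 0.224). Csf2rb2, the near copy of Csf2rb, went the other way and was higher in control LT-HSC (0.39, adjusted p = 0.0414, edgeR). With Csf2rb and Csf2rb2 summed, the log2 fold change was -0.46 (adjusted p = 0.00572, edgeR).

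In the mutant genotype 3 of 9 receptors were called between LT-HSC and MPP, where 22.8% of 12452 genes were (14.9% higher and 7.98% lower). Flt3 was again lower in LT-HSC (-1.84, adjusted p = 0.00234). Il7r, at 0 counts in mutant LT-HSC, was lower there than in mutant MPP (adjusted p = 0.0110, and 0.0565 without MPP mutant 3). The pooled MPP mutants stood 28.3-fold above a floor of 3 counts over the LT-HSC mutants. Il3ra was higher in mutant LT-HSC (0.89, SE 0.25, adjusted p = 0.0440). This call was lost without any one of LT-HSC mutants 1 and 2 and MPP mutants 1, 2 and 3, with log2 fold changes of 0.96, 0.78, 0.85, 0.70 and 1.13 and adjusted p = 0.0860, 0.0682, 0.121, 0.152 and 0.0597. Epor (-0.37, adjusted p = 0.379), Csf2rb (0.21, adjusted p = 0.422) and Csf3r (-0.53, adjusted p = 0.171) were not called, and neither was Csf1r (0.44, 95% interval -1.99 to 2.86). Csf2rb2 was higher in mutant LT-HSC (1.37, adjusted p = 0.00458, edgeR). With Csf2rb and Csf2rb2 summed, the log2 fold change was 0.45 (adjusted p = 0.0791, edgeR). Epor was called without LT-HSC mutant 3 (-0.73, adjusted p = 0.0206), and without LT-HSC mutant 2 Csf3r (-0.90, adjusted p = 0.00538) and Csf1r (-2.10, adjusted p = 0.0118) were called. The comparisons between cell types and between genotypes share libraries, so their values are given side by side only.

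Ordered by group mean in CPM, Flt3 and Il7r followed the same order, with MPP controls highest, then MPP mutants, LT-HSC controls and LT-HSC mutants, and for Flt3 no neighbours in that order overlapped. For Il7r the MPP groups were apart from each other and from LT-HSC, but the LT-HSC groups lay at or near the floor and give no order between themselves. Csf3r ran from MPP controls through LT-HSC controls and MPP mutants to LT-HSC mutants, also without overlap in CPM, although the lowest pair overlapped in TPM, which also divides by transcript length. Csf1r and Csf2rb had MPP controls above the LT-HSC controls without overlap, and no other neighbours were separated. Epor had MPP controls at the bottom, separated from the LT-HSC controls above them. For Kit, Csf2ra and Il3ra no neighbouring groups were separated.

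Levels of different genes can be compared only per transcript length, and the deposited TPM were used for that. Kit led in every group, with mean levels of 310.8 TPM in LT-HSC mutants, 366.5 TPM in LT-HSC controls, 260.7 TPM in MPP mutants and 289.9 TPM in MPP controls. In MPP mutants the next receptor by TPM was Epor, at 125.6 TPM, followed by Flt3 at 101.7 TPM and Csf2ra at 40.8 TPM. In MPP controls the next was Flt3, at 210.2 TPM, followed by Csf1r at 126.9 TPM and Csf3r at 54.1 TPM, and Epor was sixth of the 9 at 42.9 TPM. In LT-HSC Epor came after Kit in both genotypes, at 110.9 TPM in mutants and 102.3 TPM in controls.

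Summed over the 9 receptors, the level was 596.5 ± 24.1 TPM in LT-HSC mutants against 720.1 ± 41.4 TPM in LT-HSC controls, and 606.0 ± 27.3 TPM in MPP mutants against 833.3 ± 43.0 TPM in MPP controls (SD, n = 3 each). Within that sum, Epor took 20.8% in MPP mutants against 5.13% in MPP controls. Flt3 took 16.7% in MPP mutants against 25.3% in MPP controls, and Csf1r took 3.19% against 15.2%. The Kit share was 43.1% in MPP mutants and 34.8% in MPP controls, although its own level was not called. In LT-HSC, Flt3 took 5.44% in mutants against 10.0% in controls. These shares add to a whole, so a gene whose level is steady gains share when others fall.

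**Figure D4:**
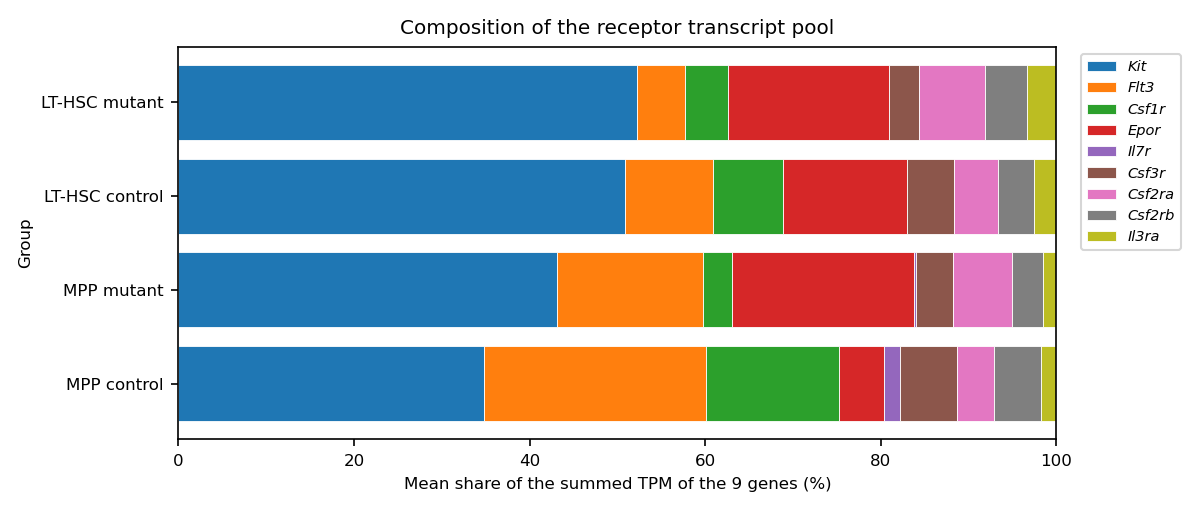
Mean share of each receptor in the summed TPM of the 9 genes (%), with 1 bar per group (n = 3 libraries each). Epor takes 20.8% of the bar of MPP mutants and 5.13% of that of MPP controls, and Kit is the widest segment in all 4 groups.

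For each receptor the genes with the most similar pattern were found among 10570 genes, by the root mean square difference of centred log2 CPM over the 12 libraries, so that smaller is closer. The closest to Epor was Lmna, which encodes lamin A and C, at 0.16, followed by Emc9 at 0.22 and Klf1, an erythroid transcription factor, at 0.22, against a spread of 0.67 of Epor around its own mean. For Flt3 they were Satb1, a chromatin organiser of lymphoid cells, at 0.28, Mzb1 at 0.32 and Ticam2 at 0.33, against an own spread of 1.05. For Il7r they were Ccr9, a chemokine receptor of thymus-seeking progenitors, at 0.93, the recombinase gene Rag2 at 1.01 and the chemokine receptor Ccr7 at 1.07, against 2.92.

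For Csf1r the closest genes included the lysosomal protease gene Ctss at 0.30 and AI607873 at 0.43, against an own spread of 1.64. Csf2rb was followed most closely by Laptm5, a lysosomal membrane protein of blood cells, at 0.09, with Slc29a3 and Itpr1 at 0.12, against 0.40. Csf3r had 6330416G13Rik at 0.24, Epb4.1l3 at 0.25 and the surface receptor gene Cd93 at 0.25, against 0.61. Kit, Csf2ra and Il3ra varied little themselves (own spreads 0.11, 0.23 and 0.41), and their closest genes were Baz2b at 0.06, Gorasp2 at 0.09 and Cant1 at 0.21. Among the receptors themselves, Kit and Csf2ra had the smallest difference, at 0.31, followed by Csf2rb and Csf3r, at 0.40. The measure is small for genes that vary little, and 0.31 is above the own spreads of Kit and Csf2ra. In LT-HSC the Kit mutants lay below the controls and the Csf2ra mutants above them, so this pair did not share a pattern there.

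Other cytokine receptors also fell in mutant MPP. Of 37 listed, 33 were tested, 23 were lower, 1 was higher and 9 were not called, with a median log2 fold change of -0.56. Fitted together with the LT-HSC libraries, 14 were lower, and with controls carrying vav-cre alone, 2 were. Il13ra1, a receptor chain for interleukin 13, averaged 2.20 ± 0.58 CPM in MPP mutants and 23.2 ± 6.78 CPM in MPP controls (log2 fold change -3.42). In LT-HSC it ranged from 0.58 to 9.01 CPM in mutants (median 0.66) and from 6.48 to 7.58 CPM in controls. The part of macrophage RNA in the falls of these other receptors was not tested. Il10ra, the interleukin 10 receptor chain, averaged 12.1 ± 1.82 CPM in MPP mutants and 45.5 ± 9.75 CPM in MPP controls (-1.93). Il6ra, the interleukin 6 receptor chain, had a log2 fold change of -1.21, and its signalling partner Il6st -0.56. Il2rg, the common gamma chain that pairs with Il7r, had -0.35 (adjusted p = 0.0347), whereas Crlf2, which pairs with Il7r in the receptor for thymic stromal lymphopoietin, had -0.21 (adjusted p = 0.285). The one that rose was Il1rl1, the interleukin 33 receptor, at 42.2 ± 10.8 CPM in MPP mutants and 5.89 ± 2.22 CPM in MPP controls (2.81, adjusted p = 2.49e-05). In LT-HSC, 0 of 30 tested were called by edgeR (6 had an unadjusted p under 0.05), and DESeq2 called Il1rl1 alone, at 16.3 ± 4.32 CPM in mutants and 5.59 ± 2.14 CPM in controls.

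Of 12 ligands listed for these receptors, 2 had enough counts to be tested in MPP. Flt3l, the ligand of Flt3, was higher in mutants, at 10.6 ± 1.80 CPM against 6.36 ± 0.15 CPM in controls (log2 fold change 0.71, adjusted p = 0.0103). Csf1, a ligand of Csf1r, had -0.50 (adjusted p = 0.141). Epo, the ligand of Epor, was at 0 in both mutant groups and averaged 0.05 CPM in LT-HSC controls and 0.03 CPM in MPP controls.

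Of 22 signal transducers tested in MPP, 4 were higher (18.2%) and 2 lower (9.09%) in mutants, with a median log2 fold change of -0.0037. Over all genes tested in MPP, 16.5% were higher and 18.5% lower. Jak2, the kinase bound by Epor and the shared beta chain, averaged 42.8 ± 2.27 CPM in MPP mutants and 43.7 ± 8.66 CPM in MPP controls (-0.05, adjusted p = 0.790). Stat5a, which acts downstream of Epor, had 0.25 (adjusted p = 0.0417) and Stat5b 0.16 (adjusted p = 0.156). The adaptor genes Gab2 (1.21) and Gab1 (0.56) rose, and the kinase gene Lyn (-0.82) fell. Of 15 inhibitors of signalling, 2 were higher (13.3%) and 5 lower (33.3%). Socs2 had 50.4 ± 11.9 CPM in MPP mutants and 13.9 ± 4.82 CPM in MPP controls (1.84, adjusted p = 0.000183), and Cish, another STAT5-induced inhibitor, had 0.54 (adjusted p = 0.0218). Socs3, an inhibitor of Csf3r signalling, averaged 0.998 ± 0.77 CPM in MPP mutants and 4.09 ± 0.88 CPM in MPP controls (-2.06). The phosphatase gene Ptpn6 (-0.53) and the ubiquitin ligase gene Cblb (-0.48) also fell.

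Of 14 response genes, 3 were higher (21.4%) and 1 lower (7.14%) in mutant MPP, with a median log2 fold change of 0.07. The shares over all genes tested in MPP were 16.5% higher and 18.5% lower. Tfrc, the transferrin receptor and also a gene of the red cell list, averaged 418.6 ± 71.0 CPM in MPP mutants and 185.4 ± 32.5 CPM in MPP controls (1.15). Gadd45g, a stress and growth arrest gene, rose (1.63), as did the proapoptotic gene Bcl2l11 (0.75), and the antiapoptotic gene Bcl2 fell (-0.60). Pim1 (0.15) and Bcl2l1 (-0.10), known targets of STAT5, were not called. Of 20 transcription factors known to act on receptor genes, 5 were higher (25%) and 7 lower (35%). Gata1 and Klf1, the erythroid factors, rose (1.66 and 1.64), and Gata1 averaged 201 ± 46.9 CPM in MPP mutants and 62.2 ± 11.8 CPM in MPP controls. Cebpe, a factor of late granulocyte development, rose by 2.37 on the log2 scale, and Irf8, a factor of monocytes, had -1.57. Spi1, which encodes PU.1, had -0.52 (adjusted p = 0.0170), Hoxa9 -0.93 and the B cell factor Ebf1 -2.74. Without MPP mutant 2 the number of lower factors was 3. In LT-HSC, 0 of the 74 ligands, transducers, inhibitors, response genes and factors tested were called by edgeR (4 had an unadjusted p under 0.05), and DESeq2 called Hoxa9 alone.

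**Figure D5:**
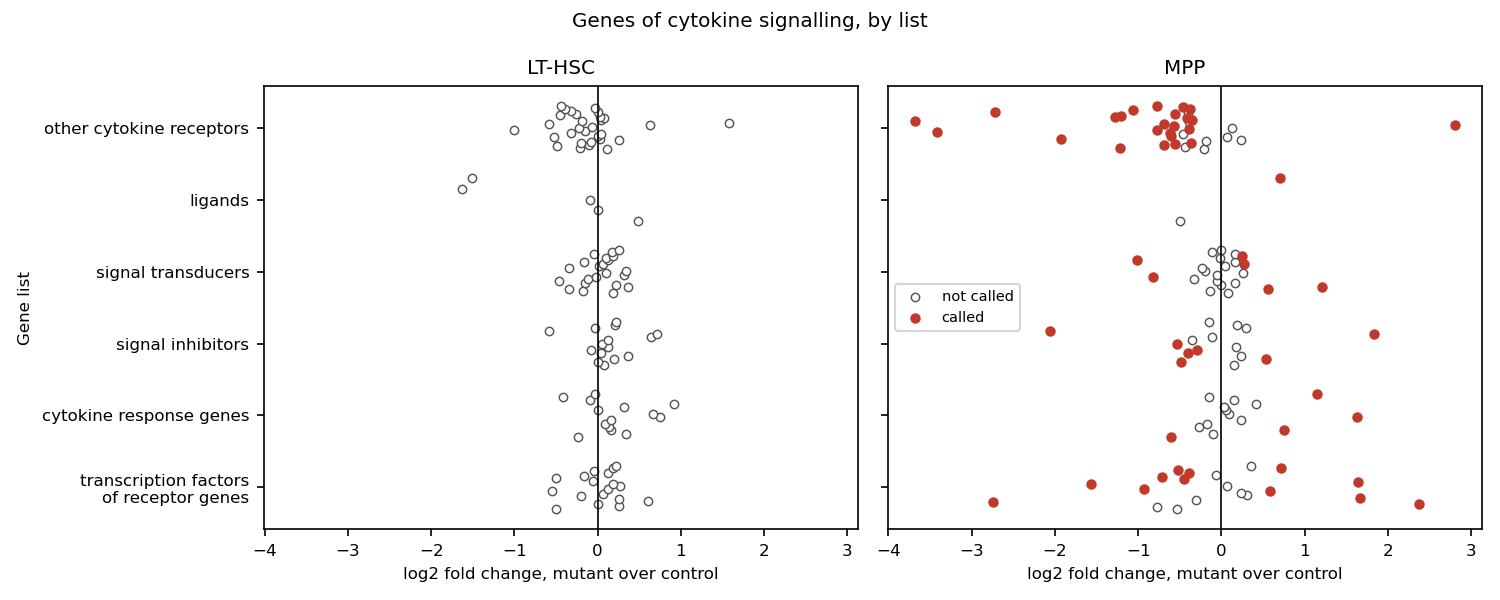
Log2 fold change, mutant over control, of the genes in 6 lists of cytokine signalling in LT-HSC (left) and MPP (right); each point is a gene, and filled points are called at an adjusted p under 0.05. In MPP 23 of the 33 other receptors tested are called to the left of 0 and Il1rl1 alone to the right, at 2.81, and no point is called in LT-HSC.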

How the data were processed

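Lysis removed red cells and magnetic beads enriched lineage-negative cells, per the labels' protocols, and RNA from sorted cells was made into libraries with a low-input kit that keeps no strand. Per the submitters' processing notes, STAR and RSEM were used with mm10, with no version stated. Per the file headers, the deposited values per gene are RSEM's expected counts and TPM. The expected counts share reads between the genes they fit and were rounded to whole numbers. They were tested in edgeR 4.0.16 (R 4.3.3) by the quasi-likelihood method after TMM scaling and filterByExpr (minimum count 10, minimum total 15), fitted over all genes with Benjamini-Hochberg adjustment; a gene is called at an adjusted p under 0.05. Each genotype comparison used the 6 libraries of its cell type, each cell-type comparison the 6 of its genotype, and the interaction all 12. SEs and 95% intervals come from the quasi-likelihood statistics. CPM use the TMM-scaled library size, so 3 counts in a library are 0.198 to 0.288 CPM; floors and intervals on counts cover counting error only. TPM were used as deposited by the authors. The fitting step was checked on simulated counts. The simulation set the same spread for every gene and library, so it does not cover the unequal spread of the real replicates.

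The receptors and gene lists were chosen with earlier results of these data known. Named genes are the receptors, their 3 most similar genes, and up to 4 called genes of each list with the smallest p; other genes named from the lists were chosen after their values were seen, and some genes that the rule picks are not reported here. Deviations from the group means correlated between same-numbered LT-HSC mutants and controls (r across genes 0.108, 0.148 and 0.175, all over 0.1), so these numbers count as pairs, from the data and not from a label. The values printed come from fits without the block, and the block was an alternative. Those of MPP did not pair (r -0.02, -0.21 and -0.18). Replicates of a group differed by more than sampling noise (chi-square per gene 5.22 to 50.0). Alternatives were RLE and upper-quartile scaling, DESeq2 1.42.0, no filter, the replicate block, 1 fit of all libraries, Cre-positive controls alone, each library left out, and, chosen after seeing the data, Csf2rb and Csf2rb2 summed. The RefSeq promoter table has no entry used here for Csf1r or Csf2rb.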

Additional observations from a re-analysis of the deposited data

Results flagged for a closer look

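The genotype effect on Irf8, which encodes a transcription factor of monocytes and dendritic cells and stood in the list of factors that act on receptor genes, differed between the cell types in the test of the difference itself. The log2 fold change in LT-HSC exceeded that in MPP by 1.78 (edgeR, adjusted p = 0.0114). Irf8 averaged 61.5 ± 7.79 CPM in LT-HSC mutants and 52.2 ± 6.83 CPM in LT-HSC controls, against 37.6 ± 5.51 CPM in MPP mutants and 109.4 ± 17.6 CPM in MPP controls (SD, n = 3 each).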

How the results depend on the processing

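The number of receptors called in LT-HSC was 1 under RLE and upper-quartile scaling, DESeq2 and no filter, 2 when all libraries were fitted together and 0 with Cre-positive controls alone. With 1 library left out it ran from 0 to 3. With Cre-positive controls alone, 1 MPP control is left, so calls lost in MPP under that setting are not a result about the receptors. In MPP the number of receptors called was 6 to 7 with a library left out. Between control LT-HSC and MPP it was 2 with Cre-positive controls alone and 6 to 7 with a library left out, and between mutant LT-HSC and MPP 1 to 4. For the interaction it was 2 by DESeq2, 1 without a filter and 0 to 2 with a library left out. The number of all genes called moved with the settings too. In LT-HSC it ran from 13 to 283, against 54 in the main fit. Between mutant LT-HSC and MPP it ran from 582 to 5087, against 2845 in the main fit. A call gained or lost under a setting is therefore not particular to the receptors.

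With the replicate block, 1 receptor was called in LT-HSC, 6 in MPP, 6 between control LT-HSC and MPP, and 2 between mutant LT-HSC and MPP, where Il3ra was lost (0.92, adjusted p = 0.0621); no other call of a receptor changed. Csf1r moved to -2.09 in LT-HSC (adjusted p = 0.378) and turned to -0.96 between mutant LT-HSC and MPP.

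Directions turned only for values that were not called: in LT-HSC, Csf2rb to -0.0165 with upper-quartile scaling, -0.0117 in the joint fit and -0.0434 summed with Csf2rb2; Kit in MPP to 0.0593 and Il3ra between control LT-HSC and MPP to -0.16 with Cre-positive controls; Csf2ra between mutant LT-HSC and MPP to 0.0102 with upper-quartile scaling. With 1 library left out, the lowest and highest log2 values were -0.12 and 0.20 for Csf2rb and -0.15 and 0.39 for Epor in LT-HSC, -0.11 and 0.0257 for Kit in MPP, -0.0736 and 0.24 for Il3ra between controls, and -0.17 and 0.0203 for Csf2ra and -2.10 and 0.97 for Csf1r between mutants. For the interaction they were -1.14 and 0.59 for Il7r, -0.10 and 0.15 for Csf2ra, -0.82 and 2.21 for Csf1r and -0.28 and 0.26 for Csf3r. The cause was not tested. With 3 libraries a group, and Il7r near 0 in LT-HSC, small differences were not detectable.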
